A study of Mus musculus with 1 sample.

Results

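The genes of the mitochondrial respiratory chain were followed in single alveolar macrophages (AMs), the resident macrophages of the lung airspaces. Members were the listed genes whose symbols start with mt-, Nduf, Sdh, Uqcr, Cox4 to Cox8 or Atp5, together with Cycs. This rule took 106 of the 11918 listed genes and used no measured value. Of these, 93 are encoded in the nucleus and 13 in the mitochondrial genome (mtDNA). The nuclear members comprised 79 subunits, of which 36 belong to complex I, 4 to complex II, 8 to complex III, 15 to complex IV and 15 to complex V, with cytochrome c (Cycs) beside them. The remaining 14 nuclear members were assembly factors and relatives that are not subunits of the classical complexes. Ndufa4 was counted with complex IV, where its product resides.

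The respiratory chain sits in the inner mitochondrial membrane. Complexes I and II feed electrons from NADH and succinate to ubiquinone, complex III passes them to cytochrome c, complex IV reduces oxygen, and complex V (ATP synthase) uses the proton gradient so formed to make ATP. Complexes I, III, IV and V combine subunits of both genomes, whereas complex II and cytochrome c are encoded in the nucleus alone. The mtDNA genes are transcribed by a polymerase of their own as long precursors, which are then cut into the separate mRNAs. AMs live in an oxygen-rich space, take up surfactant lipids and rely largely on oxidative metabolism.

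The data came from 1 library of AMs of 1 adult mouse, labelled wild-type and described in the methods of the study as Hdac3 fl/fl without Cre, so that both Hdac3 alleles were floxed and intact. The mouse was 8 to 12 weeks old by its label and came from an FVB/NJ line backcrossed to C57BL/6 for 10 generations. CD45+CD11c+Siglec-F+ lung cells were sorted and 5000 were loaded for 3′ single-cell RNA-seq, in which each captured transcript is counted once as a unique molecular identifier (UMI). The comparison with Hdac3-deficient AMs was not analysed here. With a single library, no test between conditions or animals was possible. All intervals are exact 95% binomial intervals, or ratios of counts conditioned on their sum, and cover counting error only.

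UMIs were recovered as whole numbers for 2055 cells (1143 to 8603 per cell, median 3278). Chil3, a secreted chitinase-like protein typical of AMs, had at least 2 UMIs in every cell, and 16 of 17 AM identity genes were listed. Markers of other cells were listed for 16 of 34 symbols. Cd79a had 13 UMIs in the whole library, Ms4a1 9, Pecam1 11, Ccr7 15 and Ccr2 31, and no row carried Cd3e, Trac, Epx, S100a9, Flt3 or Col1a1. Others were more frequent: the epithelial adhesion gene Epcam had 2178 UMIs in 58.1% of cells, the lymphocyte gene Cd2 1427 in 44.9%, the neutrophil gene S100a8 278 in 10.1%, Sftpc, the surfactant protein of type II pneumocytes, 172 in 6.86%, the club cell gene Scgb1a1 148 in 5.50% and Jchain 1006 in 3.21%. Whether the UMIs of these more frequent genes came from the AMs themselves or from other cells was not tested. More than 5% of UMIs lay on mtDNA genes in 384 cells (18.7%), although the methods describe a limit at that value, and 83 ribosomal protein rows held 14.04% of all UMIs.

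The 106 members took 6.81% of all UMIs. mtDNA genes gave 370 UMIs per 10000 UMIs of the library (368 to 371), and nuclear members 311 (310 to 313). Since a UMI stands for 1 captured molecule, these levels were not divided by transcript length. Among the nuclear subunits, complex IV was the highest with 99.6 UMIs per 10000, followed by complex I (81.2), complex V (76.9), complex III (39.0), complex II (4.73) and cytochrome c (4.26). Counting intervals did not overlap between neighbours in this order, also not those of complex II and cytochrome c (4.58 to 4.90 and 4.11 to 4.41). These sums depend on the number of subunits. The median nuclear subunit had 6.76 UMIs per 10000 in complex IV, 5.25 in III, 4.32 in V, 2.30 in I and 1.27 in II. The sums hold members only. The complex V subunits 2010107E04Rik (7.61 UMIs per 10000) and Usmg5 (5.94) have other symbols and lie outside the rule. With them complex V would stand above complex I, so the order of these complexes depends on the rule. Gm10053, a copy of Cycs outside the rule, had 0.544 UMIs per 10000. Counted with it, cytochrome c would stand above complex II, so that order is uncertain as well. The mtDNA genes had 177 UMIs per 10000 for complex IV, 84.0 for complex V, 76.6 for complex I and 32.7 for mt-Cytb, the single mtDNA subunit of complex III.

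**Figure D1:**
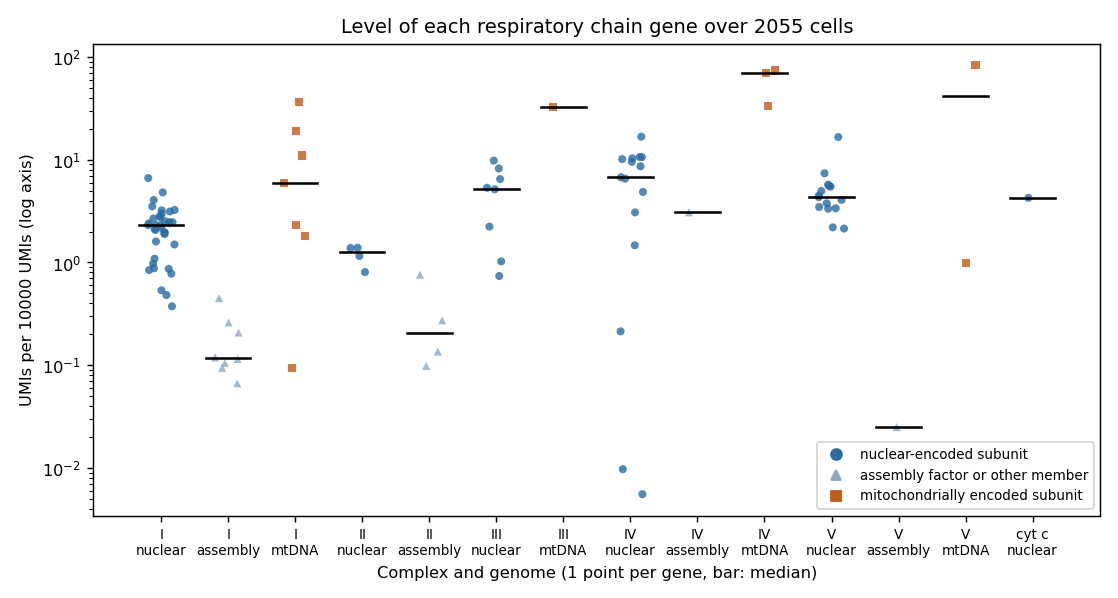
Level of each of the 106 members, in UMIs per 10000 UMIs of the library on a log axis, by complex and genome. Points are genes and bars are medians; nuclear subunits lay between 0.00554 (Cox6a2) and 16.8 (Cox4i1), assembly factors mostly below 1, and mtDNA genes between 0.0941 (mt-Nd6) and 83.0 (mt-Atp6).

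In complex I, the entry point for NADH, the most abundant nuclear subunit was Ndufa2 with 4791 UMIs (6.63 per 10000, interval 6.45 to 6.82), found in 85.1% of cells. It was followed by Ndufa3 (4.81 per 10000), Ndufa13 (4.06), Ndufb7 (3.52) and Ndufc2 (3.25). The lowest subunits were Ndufs1, which holds iron-sulfur clusters, with 0.374 per 10000 and Ndufv1, the NADH-binding subunit, with 0.482. Over the 79 nuclear subunits, level and transcript length had a Spearman correlation of -0.40 across genes, which are not independent replicates. Length was the median over all annotated protein-coding transcripts of a gene, and need not be that of the mRNA captured here.

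Complex II, which oxidizes succinate and is shared with the citric acid cycle, had its 4 subunits within a narrow range. Sdha, the flavoprotein, had 1.39 UMIs per 10000 (1.31 to 1.48) and Sdhb, the iron-sulfur subunit, 1.38 (1.299 to 1.47), so that these neighbours did not differ beyond counting error. The membrane anchors Sdhd and Sdhc had 1.16 and 0.806. Cycs, the mobile electron carrier, had 4.26 UMIs per 10000 and was found in 68.6% of cells.

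In complex III, Uqcrb led with 9.82 UMIs per 10000, followed by Uqcrh (8.23), Uqcr11 (6.48), Uqcr10 (5.34) and Uqcrq (5.16), all small supporting subunits. The Rieske iron-sulfur protein Uqcrfs1 had 2.23, and the large core proteins Uqcrc1 and Uqcrc2 had 1.02 and 0.738. Cyc1, the cytochrome c1 subunit whose symbol lies outside the rule, had 0.764.

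In complex IV, Cox4i1 was the highest nuclear member of the whole chain, with 12130 UMIs (16.8 per 10000, 16.5 to 17.1) in 97.2% of cells. Cox6b1 and Cox6c followed with 10.6 each, then Cox5a (10.3) and Cox7c (10.1). Complex IV has alternative subunits with known tissue preferences, and for most of them 1 form made up nearly all UMIs. Cox4i1 held 99.9% of the Cox4 UMIs against 7 UMIs for Cox4i2, the form known from lung and hypoxia, and Cox6a1 held 99.9% against 4 UMIs for the heart and muscle form Cox6a2. Cox7a1, the other heart and muscle form, had 154 UMIs beside 4880 for Cox7a2. Cox6b2, known as the testis form, departed from this pattern with 1061 UMIs in 34.0% of cells, or 12.1% of the Cox6b UMIs (11.5 to 12.8). The last 300 bases of its transcript shared no 98-base stretch with another annotated transcript.

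In complex V, Atp5l, a membrane subunit, had 12021 UMIs (16.6 per 10000, 16.3 to 16.9), which did not separate it from Cox4i1 beyond counting error. Among the members, Atp5e (7.38), Atp5h (5.73), Atp5g3 (5.55) and Atp5j2 (5.48) came next, and Atp5d (2.20) and Atp5o (2.14) were the lowest. 2010107E04Rik and Usmg5, complex V subunits whose symbols lie outside the rule, had 7.61 and 5.94. The catalytic Atp5b had 3.77 and its partner Atp5a1 3.37. Subunit c of the rotor is encoded by 3 genes with the same mature protein, and here their shares were 38.7% for Atp5g3, 31.2% for Atp5g2 and 30.1% for Atp5g1.

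The 14 assembly factors and relatives summed to 5.79 UMIs per 10000, and Cox7a2l, which joins complexes III and IV into supercomplexes, supplied 3.08 of that. Among the others the highest was Sdhaf4 (0.760), and Ndufaf6 (48 UMIs) and Atp5s (18 UMIs) were the lowest. A separate list of 32 assembly factors with other names held 16.6 UMIs per 10000, of which the copper chaperone Cox17 gave 4.22 and Pet100 2.32.

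Of the 13 mtDNA genes, mt-Atp6 was the highest with 83.0 UMIs per 10000 (82.3 to 83.6), followed by mt-Co1 (74.0), mt-Co3 (69.4), mt-Nd1 (36.5), mt-Co2 (33.1) and mt-Cytb (32.7). mt-Nd4 (18.9), mt-Nd2 (11.01), mt-Nd3 (5.96), mt-Nd4l (2.32), mt-Nd5 (1.79) and mt-Atp8 (0.991) were lower. mt-Nd6 had 68 UMIs in the whole library (0.0941 per 10000, 0.0731 to 0.119) and was found in 3.21% of cells. It lies at chrM:13552-14070 (GRCm38, GENCODE M21) and is the only one of the 13 on the minus strand. mt-Atp6 and mt-Co3 overlap by 1 base, and longer overlaps join mt-Atp8 to mt-Atp6 and mt-Nd4l to mt-Nd4. These 2 overlaps are shown on the plus strand, 5′ to 3′, because each pair leaves the precursor as a single mRNA; capitals mark the bases that belong to both genes.

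mt-Atp8 and mt-Atp6, chrM:7915-7981: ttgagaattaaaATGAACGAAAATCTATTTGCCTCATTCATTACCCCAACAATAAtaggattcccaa
mt-Nd4l and mt-Nd4, chrM:10155-10185: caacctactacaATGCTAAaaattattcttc

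The first overlap covers 43 bases and the second 7. In both pairs the downstream gene carried most UMIs, with 59924 for mt-Atp6 against 716 for mt-Atp8 and 13636 for mt-Nd4 against 1673 for mt-Nd4l. A 3′ assay reads the end of the shared mRNA, so these counts do not measure the upstream reading frames separately.

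Copies elsewhere in the genome bear on some members. For mt-Co1, mt-Co2, mt-Atp6, mt-Co3, mt-Nd3 and mt-Nd4l, more than 98% of the 98-base stretches in the last 300 bases also occur in an annotated nuclear copy of mtDNA, while mt-Nd2 shared 15.8% and mt-Nd1, mt-Nd4, mt-Nd5, mt-Nd6, mt-Cytb and mt-Atp8 shared none. No row carried the symbols of these copies, and how reads that match both places were treated is not given in the sources used here, so levels across these 6 and the other mtDNA genes are uncertain. Of the 93 nuclear members, 76 shared no stretch, and Cox7c (56.6%) and Atp5l (55.2%) shared more than 50%. Atp5g2 (49.9%), Ndufs3 (41.9%) and Atp5h (38.9%) came next. Further members shared less, among them Ndufs5 (32.3%), Atp5o (29.4%), Uqcrb (26.6%), Cox6c (21.1%) and Atp5g1 (14.6%). The levels of all members that share stretches, and ranks that rest on them, are uncertain as well. Gm10250, the copy that shares stretches with Atp5h, had a row of its own with 1122 UMIs in 39.2% of cells, beside 4137 UMIs for Atp5h. Gm11273, which shares 9.69% with Cox5b, had 314 UMIs beside 3510 for Cox5b. Gm10053, a copy of Cycs at chr19:24875686-24876631 (plus strand), had a row of its own with 393 UMIs, or 11.3% of the sum with Cycs (10.3 to 12.4). All 98-base stretches in its last 300 bases occur in Cycs transcripts.

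Nuclear chain genes are known targets of the nuclear respiratory factors, and their RefSeq promoters (GRCm38.p6, 250 bases before to 50 after each start) were searched on both strands for 4 motifs. Of the 93 nuclear members 79 matched by symbol or synonym, with 85 promoters. The NRF1 core GCGCATGC, whose strands overlap in the 10-base palindrome seen in some promoters, was found in 13 of the 85 (15.3%), against 2.71% of all 32841 promoters. The YY1 core AAGATGGC was in 14.1% against 2.75%, the ESRRA core TCAAGGTC in 4.71% against 1.05%, and the GABPA core CCGGAAGT in 5.88% against 3.89%. The following 30-base windows upstream of the start show the NRF1 core, in capitals, in a member of complexes I, II, IV and V and in Cycs, printed 5′ to 3′ on the strand of the gene.

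Ndufa6, chr15:82354356-82354385, minus strand: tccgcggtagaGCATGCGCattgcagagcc
Sdhb, chr4:140961206-140961235, plus strand: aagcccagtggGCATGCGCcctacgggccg
Cycs, chr6:50566611-50566640, minus strand: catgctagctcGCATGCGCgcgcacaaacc
Cox6a1, chr5:115349102-115349131, minus strand: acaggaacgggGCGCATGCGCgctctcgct
Atp5l, chr9:44920963-44920992, minus strand: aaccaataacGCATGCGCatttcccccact
Atp5g2, chr15:102671071-102671100, minus strand: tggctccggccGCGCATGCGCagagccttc

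The core began 60 bases before the start in Cycs and 240 before it in Atp5l. Uqcr11 and Uqcrc1 of complex III also held the core, but not wholly upstream of the start, and so are not shown. The 13 members with the core had a median of 2.99 UMIs per 10000 and the 66 matched members without it 2.36. Their median correlations with the other nuclear members over cells were 0.105 and 0.121. mRNAs of the factors themselves were sparse, with 114 UMIs for Nrf1, 366 for Yy1, 205 for Gabpa and 130 for Esrra, and the coactivators Ppargc1b and Pprc1 had 90 and 101. No row carried Ppargc1a.

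Variation between cells differed sharply between the genomes. The share of nuclear members among the UMIs of nuclear-encoded genes (the nuclear share) had a median of 3.15% per cell and lay between 2.04% and 4.25% from the 5th to the 95th percentile. The share of mtDNA genes among all UMIs (the mtDNA share) had a median of 3.21% but ran from 1.71% to 8.83%, with extremes of 0.0343% and 21.6%. The variance of the nuclear share was 4.10 times, and that of the mtDNA share 52.7 times, what binomial counting at the depth of each cell gives. Single nuclear members stayed close to counting error. The variance of a gene over its binomial value had a median of 1.04 over the 75 of 93 nuclear members detected in at least 20% of cells, and exceeded 1.2 for 7 of them (9.33%). Over all 2154 genes so detected the median was 1.08, and 20.0% exceeded 1.2. The highest nuclear members were Ndufa4 (1.33), Atp5l (1.32), Cox5a (1.302), Cox6c (1.29), Uqcrb (1.28) and Cox6b2 (1.28). Among mtDNA genes the values were 13.9 for mt-Atp6, 7.81 for mt-Co3, 6.68 for mt-Co1 and 5.91 for mt-Cytb, and 1.17 for mt-Nd6 and mt-Atp8. This ratio depends on the number of UMIs of a gene, which is larger for mtDNA genes.

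Whether cells rich in the transcripts of 1 genome were also rich in those of the other was examined next. Over the 2055 cells the nuclear and mtDNA shares had a Pearson r of -0.335 and a Spearman rho of -0.199. These cells share 1 library, and the values are given as a description. The relation was not even across the range. When cells were ordered by mtDNA share into 10 equal bins, the median nuclear share lay between 3.03% and 3.35% in the first 9 bins and at 2.48% in the last, whose 206 cells had 6.54% to 21.6% mtDNA UMIs. Among the 1671 cells with at most 5% mtDNA UMIs r was -0.0511, and among the 384 cells above it r was -0.453.

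Depth and nuclear RNA moved with both shares. The last bin had a median of 2149.5 UMIs per cell, 3.80% Malat1 and Neat1 UMIs (noncoding RNAs that stay in the nucleus) and 10.1% ribosomal protein UMIs. The other bins had 2835 to 3652 UMIs, 1.14% to 1.58% Malat1 and Neat1, and 13.6% to 15.4% ribosomal protein UMIs. Across cells the Malat1 and Neat1 share had an r of 0.611 with the mtDNA share and -0.465 with the nuclear share. In 4 equal bins of the Malat1 and Neat1 share, r between the genomes was -0.0176, -0.0664, -0.143 and -0.394 from the lowest to the highest bin. In 3 equal bins of UMIs per cell it was -0.386, -0.203 and -0.186 from the shallowest to the deepest. The part of Malat1, Neat1 and depth in the relation was not tested.

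**Figure D2:**
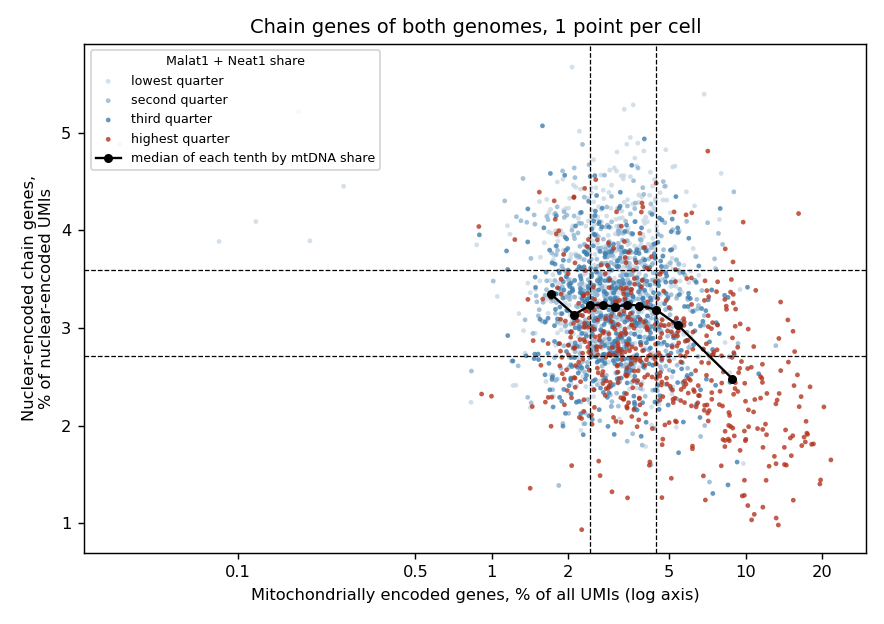
Nuclear share (vertical, percent of nuclear-encoded UMIs) against mtDNA share (horizontal, percent of all UMIs, log axis) in 2055 cells, coloured by 4 equal bins of the Malat1 and Neat1 share; dashed lines bound the lowest and highest 25% of cells (2.44% and 4.42% mtDNA, 2.71% and 3.59% nuclear). The black line of medians in 10 bins lies between 3.03% and 3.35% nuclear share and ends at 2.48% in the bin with the most mtDNA.

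Complexes of the same genome went together and complexes of different genomes did not. Among the nuclear subunits, the shares of complexes I, III, IV and V had Spearman correlations of 0.327 to 0.483 over cells in their 6 pairs, the highest being complex I with complex IV. The mtDNA subunits of the same 4 complexes had 0.688 to 0.781. Between the genomes the 16 pairs lay between -0.189 and -0.0940, and the 4 pairs within a complex, such as nuclear with mtDNA complex I, lay inside that range (-0.172 to -0.130). Complex II, with a median of 1 UMI per cell, had 0.00129 to 0.0432 with the other nuclear complexes, and is too sparse for a weak relation to be read. All pairs share depth and denominators within a genome.

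**Figure D3:**
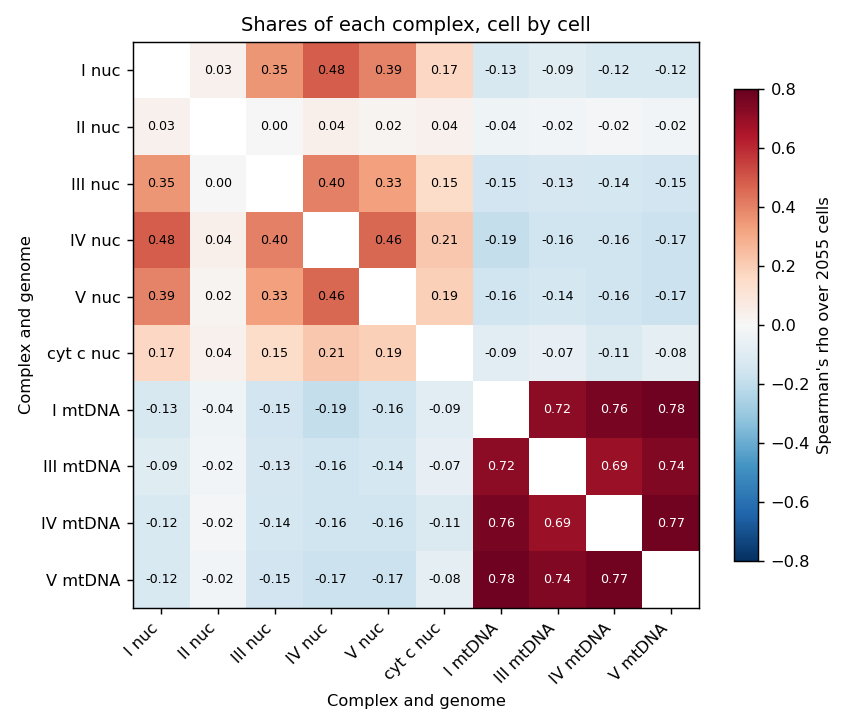
Spearman correlation over 2055 cells between the shares of each complex, with nuclear (nuc) and mtDNA subunits apart. The 2 blocks of positive values are the nuclear complexes I, III, IV and V (0.327 to 0.483) and the mtDNA complexes (0.688 to 0.781); the block between the genomes is weakly negative and complex II lies near 0.

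Gene by gene, each nuclear member was set against the share of all other nuclear members. Of the 75 detected members, 53 had an r of at least 0.1 (70.7%), beside a background of 12.3% of all 2154 genes. The highest were Atp5l (0.362), Ndufa4 (0.361), Uqcrb (0.360), Cox5a (0.336) and Cox6c (0.317). Over the 79 nuclear subunits this r had a Spearman correlation of 0.711 with UMIs and of -0.380 with transcript length, and the part of either in the order was not tested. Well-detected members near 0 were Atp5a1 (0.01095, found in 65.5% of cells) and Cox7a2l (-0.000971, in 62.0%), and Sdha had -0.0499. Against the mtDNA share, 10 of the 75 had an r of -0.1 or below (13.3%), beside 5.85% of all genes, with Atp5l lowest at -0.151. A value below 0 was found for 70 of the 75 members and for 48.8% of all genes. Among the mtDNA genes, mt-Atp6 (0.891), mt-Co3 (0.880) and mt-Nd1 (0.841) had the highest r with the other 12, and mt-Nd6 had 0.0314.

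Other genes of the pathway were compared through lists. Chain subunits whose symbols lie outside the rule (Usmg5, 2010107E04Rik and Cyc1) together had an r of 0.393 with the nuclear share and -0.220 with the mtDNA share. Singly, Usmg5 (0.335) and 2010107E04Rik (0.231) reached 0.1 with the nuclear share and Cyc1 (0.0601) did not. Carriers, import proteins and chaperones of mitochondria had 0.328 and -0.253, and 6 of their 18 detected genes reached 0.1 with the nuclear share, among them the ADP/ATP carrier Slc25a5 (0.229) and the import subunit Tomm7 (0.176). Mitochondrial antioxidants had 0.204 and -0.195, and 3 of their 6 detected genes reached 0.1 with the nuclear share (Gpx1, Prdx5 and Gpx4). The others, Sod2, Txn2 and Ucp2, had -0.00915, -0.0145 and -0.0489. For citric acid cycle and pyruvate dehydrogenase genes the values were 0.0285 and -0.0296, and for glycolysis -0.0137 and 0.0268, with 0 of 3 and 0 of 9 detected genes at 0.1. Genes that keep up mtDNA and its RNA had 0.172 with the nuclear share and -0.0450 with the mtDNA share. Only 1 of their 20 rows was detected in at least 20% of cells. This was Slirp, which stabilizes mitochondrial mRNAs, with 1022 of the 3193 UMIs of the list and 0.192 with the nuclear share. The regulators of mitochondrial biogenesis had -0.0498 and -0.00555. Ribosomal proteins, which have no part in the chain, had 0.377 and -0.528, and 54 of 80 detected rows reached 0.1 with the nuclear share. Immediate-early and heat shock genes, which can be induced by tissue digestion, had -0.237 with the nuclear share and -0.00922 with the mtDNA share.

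**Figure D4:**
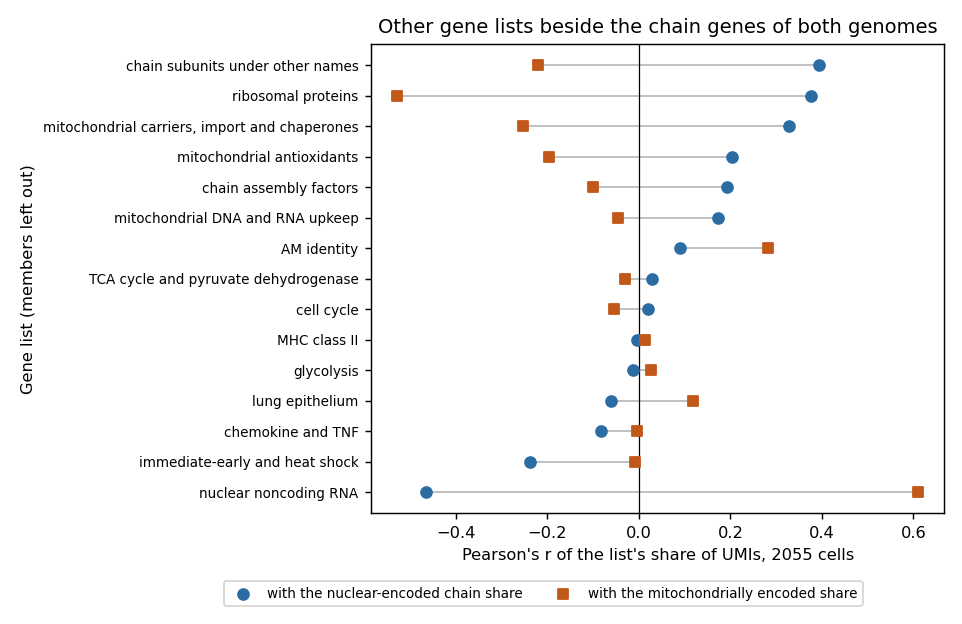
Pearson r over 2055 cells of the UMI share of each gene list with the nuclear-encoded chain share (circles) and the mitochondrially encoded share (squares), for lists with at least 2000 UMIs. Ribosomal proteins (0.377 and -0.528), other chain subunits and carriers lie at 1 extreme and the nuclear noncoding RNAs Malat1 and Neat1 (-0.465 and 0.611) at the other, with citric acid cycle and glycolysis genes near 0.

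Outside the members, the genes most like the nuclear share over 2055 cells were Fcer1g, an Fc receptor signalling chain (r 0.366), Myl6 (0.338), Usmg5 (0.335), Ear2 (0.319), Shfm1 (0.316), Dbi (0.314), Ppia (0.309), Rps27a (0.309), Txn1 (0.300) and Tmsb4x (0.284). The most unlike were Malat1 (-0.475), Neat1 (-0.269), Iqgap1 (-0.238), Xist (-0.237) and Kcnq1ot1 (-0.226), 4 of which are noncoding RNAs. The genes most like the mtDNA share were Malat1 (0.539), Xist (0.307), Neat1 (0.287), the lysosomal genes Ctsd (0.276) and Psap (0.268), Kcnq1ot1 (0.255), Trf (0.228), Mrc1 (0.225), Ctsz (0.207) and Chil3 (0.197). The lowest were the ribosomal protein genes Rpl35 (-0.291), Rpl41 (-0.282), Rps28 (-0.279), Rps27 (-0.278) and Rps29 (-0.266). Malat1, Neat1, Xist and Kcnq1ot1 therefore stood at opposite ends of the rankings for the 2 genomes.

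Cells in which the genomes part were taken as those in the highest 25% for 1 share and the lowest 25% for the other. The combination of high mtDNA and low nuclear share held 208 cells (10.1%, 8.85 to 11.5), and that of low mtDNA and high nuclear share 147 cells (7.15%, 6.08 to 8.35). Unrelated shares would place 6.25% of cells in each. Because the 25% limits were set on these same cells of 1 library, the intervals are no test against that value. Both shares were high in 79 cells (3.84%) and low in 112 (5.45%). Median UMIs per cell were 2244.5 in the first combination, against 3286 in the second, 3288 where both were high and 2399 where both were low, so that both groups of low nuclear share were the shallower ones. Malat1 and Neat1 made up a median of 3.73% of nuclear-encoded UMIs in the first combination, and 1.09%, 1.01% and 1.67% in the others in the order given. AM identity genes summed to 304 and 288 UMIs per 10000 nuclear-encoded UMIs in the 2 parted groups. Where both shares were high or both low they summed to 310 and 223. Over all cells Chil3 alone held 98148 of the 191294 UMIs of this list, so the sums say little about its other genes. Singly, r with the nuclear share ran from -0.199 for Mrc1 to 0.319 for Ear2. Among markers of other cells, the lung epithelium list had 4.33 and 3.25 per 10000 (mostly Epcam), the neutrophil list 0.259 and 0.649, and the B and plasma cell list 0.120 and 0.0984. Of the dendritic cell list only Ccr7 was listed, with 9 and 1 UMIs, the monocyte list had 0 and 2 UMIs, and the T cell list was Cd2 alone, with 123 and 93 UMIs. The part of these in the split was not tested.

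Since the parted cells were chosen by the members' own sums, the values of the members describe the choice. Relative to low-mtDNA nuclear-high cells, nuclear complexes I, III, IV and V stood at 0.570, 0.509, 0.517 and 0.580 in mtDNA-high nuclear-low cells, Cycs at 0.433 and complex II at 0.845 (interval 0.701 to 1.02). Of the 79 nuclear members with at least 200 UMIs, 77 were lower, and the exceptions were Sdha (77 against 69 UMIs, ratio 1.13) and Ndufaf4 (23 against 21 UMIs, 1.11). The lowest ratios were those of Ndufb6 (0.321), Cox6b2 (0.322) and Cox7b (0.350). Lists outside the members entered the choice only through the UMI totals by which each share was divided. Among these, the chain subunits under other names stood at 0.489 (0.437 to 0.546), genes that keep up mtDNA and its RNA at 0.698 and chain assembly factors at 0.712. Ribosomal proteins stood at 0.713, mitochondrial antioxidants at 0.762 and carriers and import proteins at 0.778. The neutrophil list, with 13 against 33 UMIs, had 0.400 (0.193 to 0.780). Other lists went from 1.01 for citric acid cycle genes (0.881 to 1.15) and 1.12 for glycolysis (1.03 to 1.22), to 1.34 for immediate-early and heat shock genes and 3.19 for Malat1 and Neat1. MHC class II genes, which present antigen, had 43.8 UMIs per 10000 in the cells low for both shares and between 10.7 and 13.9 in the other groups. Of the 1257 MHC class II UMIs in the cells low for both, 1110 lay in 3 cells, and 1 cell alone held 699.

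Among the 4210 other genes with at least 200 UMIs, the largest pooled ratios in mtDNA-high nuclear-low over mtDNA-low nuclear-high cells were those of Il4ra, the interleukin 4 receptor (5.51, 38 against 7 UMIs, interval 2.43 to 14.6), Ube2c (4.87), Nav2 (4.39), Nup210 (4.20), Nsd1, Tsnax and Unc45a (4.06 each), Rbm4b (3.96), Gm26740 (3.89) and Sgta (3.72). The smallest were those of the mitochondrial ribosomal protein gene Mrpl40 (0.179, 3 against 17 UMIs, interval 0.0336 to 0.619), Hist1h2ap (0.184, 2 against 11 UMIs, 0.0199 to 0.845), the Cycs copy Gm10053 (0.192, 7 against 37 UMIs, 0.0722 to 0.436), Prorsd1 (0.290), Exosc8 (0.294), Dcun1d1 (0.304), Bad (0.312), Mrpl22 (0.326), 2310033P09Rik (0.327) and Ube2m (0.338). All of these rest on at most 43 UMIs in either group and are extremes picked from many sparse genes. The interval of Ube2m reached past equality (0.0795 to 1.12).

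A few cells stood far outside the range of mtDNA shares. In 6 cells, singled out after their values were seen, mtDNA genes had 1, 2, 3, 2, 5 and 3 UMIs, or 0.0343% to 0.261% of UMIs, while the next lowest cell had 0.828%. Their nuclear chain share was 3.89% to 5.21%, above the median of all cells in each, and they held 51 to 142 UMIs of nuclear members. AM identity genes made up 2.51% to 3.50% of their nuclear-encoded UMIs (median of the other cells 2.64%), and each had at least 18 Chil3 UMIs. Malat1 and Neat1 were nearly missing as well, with no UMI in 4 of the 6 and at most 0.0873% in the others. In the whole library 11 cells had a Malat1 and Neat1 share under 0.1%, and 6 of these 11 were the cells in question, against 0 of the other 2044 cells. That limit lies just above the highest value of the 6 cells, so this count describes the choice of limit. Depth was 1149 to 2913 UMIs in these 6 cells.

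The make-up of the mtDNA transcripts also shifted with their amount. Between the 513 cells with the lowest and the 513 with the highest mtDNA share, mt-Atp6 went from 19.0% (18.6 to 19.5) to 24.1% of mtDNA UMIs (23.8 to 24.4), and mt-Nd4 from 4.29% to 5.58%. In the opposite direction mt-Co1 went from 22.7% to 18.5%, mt-Co3 from 20.7% to 18.05% and mt-Nd3 from 2.19% (2.04 to 2.36) to 1.396% (1.33 to 1.47). mt-Cytb was 7.98% and 9.31%, and mt-Nd1 (10.1% and 9.88%) and mt-Co2 (8.90% and 8.80%) differed by less than their counting intervals. Because the cells were ordered by the sum of these genes, the most abundant of them shape the order itself.

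The study named subsets of AMs by cell cycle genes, by MHC class II genes and by chemokine and Tnf genes, and the chain was compared between the 103 cells highest in each list and the other 1952. The sets share 2 to 5 cells with each other, and cells high for cell cycle genes were deeper (median 4281 against 3234 UMIs). The nuclear members together hardly differed, with ratios of 0.991 (0.975 to 1.01) for cell cycle, 1.02 (1.01 to 1.04) for MHC class II and 0.940 (0.922 to 0.957) for chemokine cells. The mtDNA genes had ratios of 0.893 (0.879 to 0.908), 0.994 (0.977 to 1.01) and 0.947 (0.931 to 0.963). No complex of either genome was 25% higher or 20% lower in any of the 3 comparisons. The median ratio of the nuclear members with at least 1000 UMIs was 1.001, 1.01 and 0.942, and that of all genes so abundant 0.933, 0.963 and 0.956, in the same order. The lists hold genes by which the study named clusters of these cells, with related genes, so they are not independent of these data. In cell cycle cells, the mtDNA genes were lower in each complex, at 0.883 for complex I, 0.892 for mt-Cytb, 0.885 for complex IV and 0.921 for complex V, while the nuclear subunits of these complexes stood at 0.949, 0.986, 0.997 and 1.02.

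Single members were called when at least 25% higher or 20% lower, among the 63 nuclear members with at least 1000 UMIs. In cell cycle cells 4 were higher, beside a background of 11.2% of all 1157 genes, and 5 were lower, beside 24.6%. The rotor gene Atp5g2 was the highest (6.78 against 4.50 UMIs per 10000 nuclear-encoded UMIs, ratio 1.504, 1.33 to 1.69), with Uqcr10 (1.39), Cox7a2 (1.36) and Atp5o (1.35). The lower ones were Uqcr11 (0.667, 0.577 to 0.768), Ndufb2 (0.712), Atp5e (0.715), Atp5d (0.727) and Ndufa13 (0.736). Small subunits of the same complex thus differed in opposite directions, as Uqcr10 and Uqcr11 of complex III did. Of the mtDNA genes, mt-Nd5 (0.752), mt-Nd2 (0.773) and mt-Nd4l (0.788) passed the same limit.

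In MHC class II cells 2 nuclear members were higher (background 5.02%), namely Ndufa13 (1.33, 1.15 to 1.53) and Ndufa5 (1.26), and 2 were lower (background 13.2%), Ndufs6 (0.751) and Cox6b2 (0.795, with an interval of 0.578 to 1.07 that includes equality). In chemokine cells 0 nuclear members were higher (background 8.12%) and 3 were lower (background 11%), Ndufa5 (0.761), Uqcr11 (0.797) and Cox7b (0.799). These shares of the 63 members, 0% to 7.94%, lay below the background in every comparison and direction. mt-Nd4l had a ratio of 0.630 in MHC class II cells (58 UMIs, 0.476 to 0.819) and 1.28 in chemokine cells (113 UMIs, 1.05 to 1.55). With 1 library none of these differences has a replicate check.

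**Figure D5:**
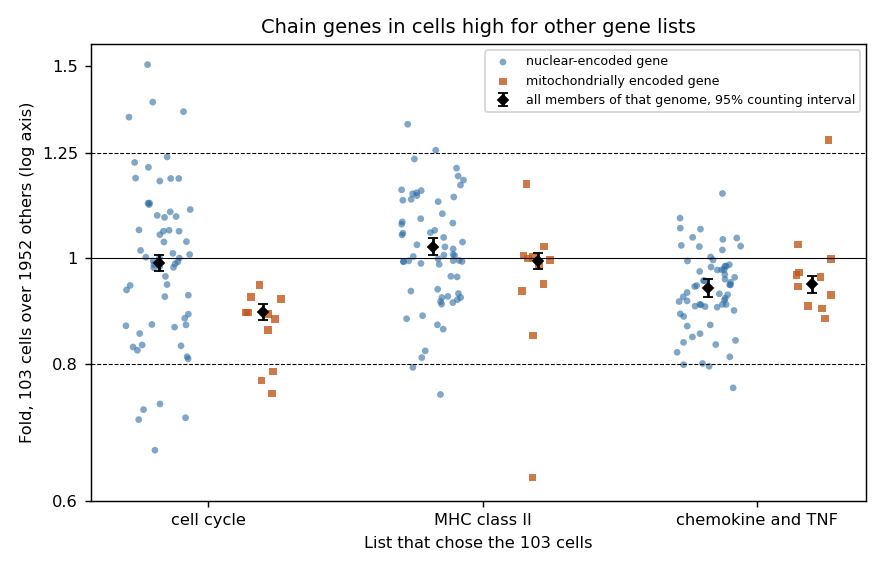
Ratio of each member with at least 1000 UMIs (log axis) between the 103 cells highest for a gene list and the 1952 other cells, for 3 lists; circles are nuclear members, squares mtDNA genes, and diamonds all members of a genome with 95% counting intervals. Dashed lines mark 20% lower and 25% higher; the sums of each genome lie between 0.893 and 1.02, with Atp5g2 (1.504) and Uqcr11 (0.667) in cell cycle cells at the edges of the nuclear members.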

How the data were processed

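AMs from 1 mouse gave 1 library (10x Genomics 3′, v2). The authors counted UMIs with Cell Ranger 2.1 on mm10, filtered cells by genes detected (300 to 2500, the upper limit against doublets) and normalized with Seurat. They deposited natural log values, ln(1 + UMIs per 10000 UMIs of the cell), and a scaled score per gene and cell after regression on UMIs and percent mitochondrial content. Here, UMIs were recovered from the steps of the log values (100% whole within 0.01, 7222978 in all), and no doublet caller was run. Scores served in 1 alternative. The members and lists were chosen with earlier results of these data known.

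Shares were pooled over cells or taken per cell, and correlations over genes used Pearson residuals of UMIs for genes detected in at least 20% of cells. The genes named were all mtDNA genes, the 5 most and 2 least abundant nuclear members per complex, members at least 25% higher or 20% lower in a comparison, genes with extreme correlations or ratios (at least 200 UMIs), and members of lists described. Gene positions and transcripts came from GENCODE M21 (105 of 106 members placed), and promoters from RefSeq. Steps were tested on simulated data and run with pandas 2.3.3, scipy 1.17.1 and numpy 2.4.6 (Python 3.11.15). Alternatives drew 2000 UMIs per cell, changed denominators, limits or measures, or left out cells. A comparison within complex I is not reported here.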

Additional observations from a re-analysis of the deposited data

How the results depend on the processing

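The correlation of the nuclear and mtDNA shares stayed below 0 under all 12 alternatives, from -0.417 with both shares taken of all UMIs to -0.0511 in cells with at most 5% mtDNA UMIs. It was -0.205 at 2000 UMIs per cell (1756 cells, 299 left out), -0.254 for sums of Pearson residuals and -0.272 for means of log values. Of the 3 alternatives chosen after seeing the data, leaving out the 25% of cells with the most Malat1 and Neat1 gave -0.0878, leaving out the third with the fewest UMIs gave -0.198, and leaving Malat1 and Neat1 out of the totals gave -0.314. The negative value thus rests mostly on cells above 5% mtDNA UMIs or rich in Malat1 and Neat1; the cause was not tested. The nuclear share was 3.15% as a mean over cells and 3.29% in cells of at most 5% mtDNA UMIs (pooled 3.23%), and the mtDNA share 3.91% and 3.01% (pooled 3.70%). Cells with high mtDNA and low nuclear share were 8.49% at 2000 UMIs and 6.81% without the 25% of cells with the most Malat1 and Neat1 (also chosen after seeing the data), and with limits at 20% in place of 25% the parted groups held 7.98% and 5.16%. In cell cycle cells the ratio of nuclear members was 1.02 for the top 10% of cells and 0.973 at 2000 UMIs, and that of mtDNA genes 0.966 and 0.958. At a limit of 1.5-fold, 1 nuclear member was higher in cell cycle cells, and 0 were lower there, 0 were higher or lower in MHC class II cells and 0 were lower in chemokine cells. The median variance of mtDNA genes over binomial was 2.27 at 2000 UMIs (4.21 with all UMIs). Each of the other 19 values moved by less than 0.05 in a correlation, stayed within its counting interval or within 1.5 times its count, or moved by less than 0.1 in a variance ratio. No paired analysis was possible because there is 1 library. Sparse members set the limit of depth, since complex II and cytochrome c had a median of 1 UMI per cell.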
